A study of Mus musculus with 6 samples.

Results

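The 10 genes described here encode potassium channels, calcium channels and calcium release or uptake regulators of vascular smooth muscle. They were selected by gene name, with earlier results of these data known, from the 24391 genes of the deposited count table: Kcnmb1, Kcnma1, Kcna5, Kcnj8, Abcc9, Cacna1c, Cacnb2, Trpc6, Itpr1 and Pln. RNA was sequenced from arteries (BCA in the labels, read here as brachiocephalic) labelled as atherosclerosis lesion, each from 1 mouse, 3 wild type (WT) and 3 Col15a1 -/- (KO), and the comparison asked how the 10 transcripts differed between these genotypes. All 6 mice were on a C57BL/6 background and had eaten Western diet for 18 weeks. Type XV collagen, a basement membrane protein, is the product of Col15a1, and by the series title it was deleted in smooth muscle cells only. The labels name neither the Cre driver, the age of the mice nor any other allele, and each sample is labelled as a mixture of cell types, smooth muscle cells and macrophages among them.

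Contraction of an arterial smooth muscle cell follows its cytosolic calcium. Depolarization opens L-type calcium channels, receptor agonists open cation channels and release calcium from the sarcoplasmic reticulum through inositol trisphosphate receptors, and calcium is pumped back by a reticular ATPase that phospholamban restrains. Potassium channels oppose this by holding the membrane hyperpolarized: calcium-activated channels of large conductance, voltage-gated channels and, in vessels, ATP-sensitive channels built from a pore and a sulphonylurea receptor subunit.

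Total counts over genes ran from 22223584 to 26982005 per library. Col15a1, the deleted gene, was at 574, 407 and 501 CPM (the count relative to the library total, scaled for composition) in WT 1 to WT 3, and in KO 1 to KO 3 at 193, 198 and 91.0 CPM, so it was lower in every KO library but not absent. Contractile markers of smooth muscle were present throughout: Myh11, the smooth muscle myosin heavy chain, lay between 2193 (WT 2) and 5670 CPM (KO 2). WT 2 and KO 3 stood apart, with summed levels of 12 sympathetic neuron markers of 3566 and 6849 CPM against 218 to 350 CPM in the other libraries. KO 1 held the most skeletal muscle transcripts (412 CPM summed over 10 markers, against 13.2 to 107 CPM elsewhere). In such bulk samples, fewer cells of a type and less RNA per cell cannot be told apart.

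The sequence just upstream of 6 members is shown here because the values below turn on these genes: the beta1 subunit gene, which followed the contractile genes, the 2 subunits of the ATP-sensitive channel, which are neighbours on the chromosome, the 2 members whose groups did not overlap, and the member with the most negative log2 fold change. The first 5 lines give 100 bases ending at the base before the gene start, and the line for Trpc6 gives 90 bases of the same upstream region. Each is written 5′ to 3′ on the strand of the gene, from RefSeq (GRCm38.p6), a different build from the mm9 of the counts. Capitals mark a GC box (GGGCGG or CCGCCC) or, in Trpc6, a CArG box (CC, a run of A or T, then GG), the site to which serum response factor binds in contractile genes.
Kcnmb1, chr11:33962913-33963012, plus strand: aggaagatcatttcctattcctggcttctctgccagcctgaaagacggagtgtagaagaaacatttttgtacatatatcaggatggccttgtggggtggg
Kcnj8, chr6:142571615-142571714, minus strand: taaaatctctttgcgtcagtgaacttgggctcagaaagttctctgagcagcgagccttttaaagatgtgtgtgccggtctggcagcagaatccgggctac
Abcc9, chr6:142702275-142702374, minus strand: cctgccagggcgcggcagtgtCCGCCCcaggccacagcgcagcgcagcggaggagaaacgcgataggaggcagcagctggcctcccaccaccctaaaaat
Kcna5, chr6:126535556-126535655, minus strand: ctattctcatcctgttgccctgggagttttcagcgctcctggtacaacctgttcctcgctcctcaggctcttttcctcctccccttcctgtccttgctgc
Pln, chr10:53337586-53337685, plus strand: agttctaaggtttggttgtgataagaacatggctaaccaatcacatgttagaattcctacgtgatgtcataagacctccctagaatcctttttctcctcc
Trpc6, chr9:8543980-8544069, plus strand: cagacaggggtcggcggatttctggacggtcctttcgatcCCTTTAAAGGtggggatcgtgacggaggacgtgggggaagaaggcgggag
The search covered 250 bases before each start and both strands, and 9 of the 10 members had a sequence. A CArG box without mismatch was found for 1 member, Trpc6, beginning 122 bases before the start. This was 1 of the 12 member promoters, against 1.47% of all 32851 promoters. Of the sequences shown, those of Pln and Abcc9 were furthest apart in composition, with 32.8% and 66.8% G or C over the 250 bases, beside a median of 52.4% over all promoters. A GC box stood in the window of Abcc9 and not in those of Kcnmb1, Kcnj8, Kcna5, Trpc6 and Pln, and 32.7% of all promoters held one. Of the members not shown, Kcnma1 held 3 GC boxes, promoter 2 of Cacna1c held 6 and promoter 1 of Cacnb2 held 1. The other promoters of Cacna1c and Cacnb2 held none. The motif TATAAA, searched on both strands, was found once in the 250 bases of Pln, outside the stretch shown, and in 12.4% of all promoters. These matches describe letters in a window and no binding was measured.

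The members spanned a wide range of levels. Per kilobase of exon, the unit in which genes can be compared, Abcc9 was highest at 76.8 ± 20.6 CPM per kb, followed by Itpr1 at 48.8 ± 12.1 and Kcnj8 at 23.7 ± 7.7 CPM per kb (mean ± SD over 6 libraries, both genotypes). Abcc9 exceeded Itpr1 in 6 of 6 libraries although their ranges overlapped, and the lowest value of Itpr1 (33.2) lay above the highest of Kcnj8 (31.95). Kcnmb1 (13.3 ± 4.3), Kcnma1 (9.97 ± 1.9) and Cacna1c (8.38 ± 1.8 CPM per kb) came next, and each overlapped its neighbour in this order. Pln (5.19 ± 1.6) and Cacnb2 (5.07 ± 1.7) were not separable, each being the higher in 3 of 6 libraries. Kcna5 (1.28 ± 0.85) and Trpc6 (1.19 ± 0.58 CPM per kb) were lowest. Their order went with genotype, Trpc6 being the higher in every WT library and Kcna5 in every KO library. Abcc9 stood above 96.3% and Trpc6 above 16.5% of the 15937 genes tested.

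All 10 members passed the filter on low counts, and none passed the test across all genes. By edgeR's quasi-likelihood test with Benjamini-Hochberg adjustment, 0 of 10 members were called, as were 0% of all genes tested (smallest adjusted p of any member 0.587). Col15a1 was not called either (edgeR log2 fold change -1.62, adjusted p 0.587), although it was lower in every KO library. A member without a call is thus not shown to be unchanged. At an unadjusted p under 0.05 edgeR gave 2 members, Kcna5 and Pln, against 8% of all genes. DESeq2 called 1 member, Kcna5, against 0.333% of all genes, and limma-voom called 0 members and 0% of all genes. The log2 fold change (KO against WT) was above 0 for 8 members and below 0 for 2, and its median was 0.25; over all genes 60.9% were positive and the median was 0.068. Without KO 2, 5 of 10 were positive and the median was -0.0048. The median was 0.095 without WT 2 and 0.14 without WT 3, and 0.45 without WT 1 and 0.42 without KO 3. The groups did not overlap for 2 members, both with KO above WT, a direction seen in 8.33% of all genes, and no member lay below WT in every KO library, which 8.38% of all genes did.

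**Figure D1:**
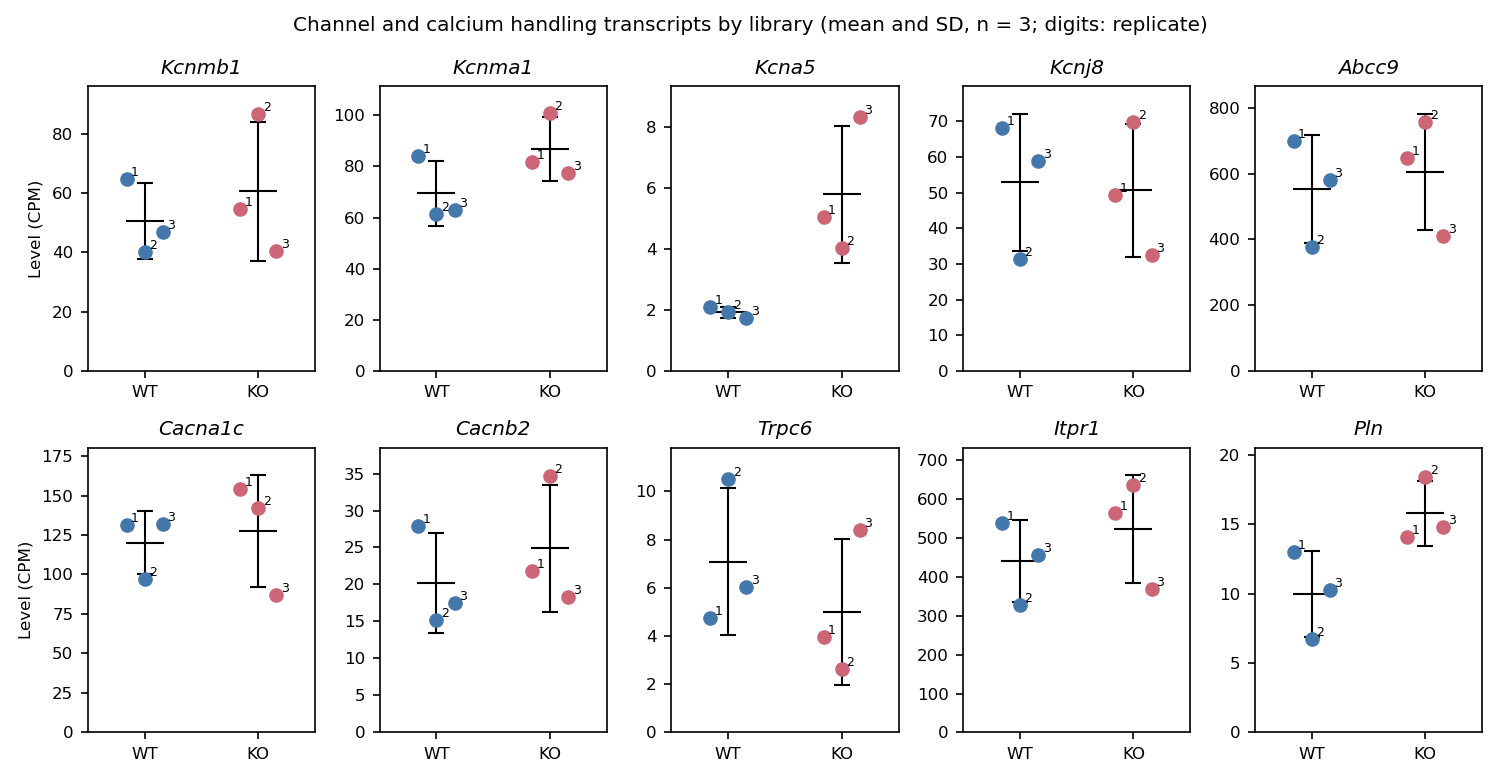
Level of each of the 10 transcripts in CPM (vertical axes start at 0) in 3 WT (blue) and 3 KO (red) libraries, with the group mean and SD in black and the replicate number beside each point. Kcna5 and Pln are the 2 genes whose KO points all lie above the WT points, and KO 2 is the highest of the 6 libraries for 7 genes.

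The large-conductance calcium-activated channel is formed by the pore subunit Kcnma1 and, in smooth muscle, the beta1 subunit Kcnmb1, which raises its calcium sensitivity. Kcnmb1 (chromosome 11, 33863013 to 33873638, mm9) was at 64.7, 40.1 and 46.9 CPM in WT 1 to WT 3, and in KO 1 to KO 3 at 54.6, 86.5 and 40.6 CPM; values follow this order below. The groups overlapped, with KO 2 high and WT 2 and KO 3 low (log2 fold change 0.26, SE 0.32, edgeR adjusted p 0.899). Without KO 2 the log2 fold change was -0.088. Kcnma1 (chromosome 14, 24117916 to 24823427) was at 84.0, 61.5 and 62.8 CPM in WT and at 81.8, 101 and 77.6 CPM in KO. Every KO library was above WT 2 and WT 3 but KO 1 and KO 3 were below WT 1 (log2 fold change 0.32, SE 0.17, edgeR adjusted p 0.688). Kcnma1 was the least variable member, with a 1.64-fold span from lowest to highest library. Reads were counted without regard to strand, and Kcnip1 and a microRNA gene share part of the span of Kcnmb1, but no exon of either overlaps its exons.

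Kcna5, which encodes the pore of a voltage-gated potassium channel of arterial smooth muscle and of heart atria, differed most. It is a single-exon gene (chromosome 6, 126482569 to 126485573, mm9) that received few reads: 46, 57 and 45 counts in the WT libraries against 117, 92 and 211 in the KO libraries. These are 2.09, 1.92 and 1.74 CPM in WT and 5.04, 4.01 and 8.32 CPM in KO. The WT libraries lay close together (1.92 ± 0.18 CPM, SD, n = 3) and every KO library was higher and more scattered (5.79 ± 2.2 CPM, SD, n = 3). The ratio of the group means was 3.02, with a log2 fold change of 1.60 (SE 0.32). The unadjusted p was 0.00235 and the adjusted p 0.587 by edgeR, while DESeq2 gave an adjusted p of 0.0138, so the call rested on the tool; over the alternatives tried the adjusted p ran from 0.0138 to 1.00. The log2 fold change was 1.24 without KO 3, the library with the highest value, and 1.23 without both WT 2 and KO 3.

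Adipocyte markers, like Kcna5, were higher on average in KO. All 6 (Adipoq, Plin1, Lep, Cidec, Cidea and Ucp1) had a positive log2 fold change, and their summed level ran from 106 to 385 CPM in WT, and from 520 to 610 CPM in KO, without overlap. Ucp1, the uncoupling protein of brown fat and the most abundant of them, was at 121, 25.3 and 95.3 CPM in WT and at 192, 225 and 289 CPM in KO. Within WT, Kcna5 stayed between 1.74 and 2.09 CPM while the summed adipocyte level ran from 106 (WT 2) to 385 CPM (WT 1). Within KO the sum had the order of Kcna5, KO 2 lowest (520 CPM), then KO 1 (601) and KO 3 (610). The single markers did not: Adipoq, Plin1 and Lep were lowest in KO 3 and Ucp1 in KO 1. Cidec and Cidea were lowest in KO 2 but highest in KO 1. The part of these transcripts in the difference of Kcna5 was not tested. Heart muscle markers summed to 12.3 to 116 CPM in WT and 50.2 to 133 CPM in KO, with overlap, and all 8 had a positive log2 fold change; their part in the level of Kcna5 was not tested either.

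The vascular ATP-sensitive potassium channel joins Kir6.1, encoded by Kcnj8, with the sulphonylurea receptor SUR2, encoded by Abcc9. The genes are neighbours on chromosome 6 (142513459 to 142519876 and 142536382 to 142650794, mm9), both on the minus strand. Kcnj8 was at 68.3, 31.5 and 58.9 CPM in WT and at 49.4, 69.9 and 32.6 CPM in KO. Abcc9 was at 700.1, 376 and 581 CPM in WT and at 648, 757 and 410.2 CPM in KO. For both genes WT 2 was the lowest and KO 2 the highest library, and the groups overlapped (log2 fold changes -0.062, SE 0.38, and 0.13, SE 0.32; edgeR adjusted p 0.967 and 0.925). The sign turned for Kcnj8 without WT 1 (0.16) or KO 3 (0.17), and for Abcc9 without WT 2 (-0.083) or KO 2 (-0.064). An overlap of 158 bases between exons of Abcc9 and 5330439B14Rik can leave reads there unassigned. Both subunits also mark pericytes, and 7 other mural cell markers, Rgs5, Pdgfrb and Cspg4 among them, summed to 938 to 1341 CPM in WT and 866 to 1299 CPM in KO. The sum hides different directions, with 4 of these markers higher and 3 lower in KO. Rgs5 was above WT in every KO library (log2 fold change 0.40, SE 0.14), while Pdgfrb was lower on average with overlap (-0.38, SE 0.28).

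The genes of the L-type calcium channel overlapped between the genotypes and were not called. Cacna1c, its pore subunit (chromosome 6, 118537258 to 119146427, mm9), was at 131, 97.1 and 132 CPM in WT and at 154, 142 and 87.0 CPM in KO. KO 1 and KO 2 were above every WT library and KO 3 below every one of them (log2 fold change 0.087, SE 0.25, edgeR adjusted p 0.934), and the sign turned without WT 2 (-0.046) or KO 1 (-0.14). Cacnb2, an auxiliary beta subunit that brings the pore to the membrane (chromosome 2, 14525933 to 14909535), was at 28.0, 15.2 and 17.5 CPM in WT and at 21.8, 34.6 and 18.3 CPM in KO. WT 1 and KO 2 were the high libraries of their groups (log2 fold change 0.30, SE 0.33, edgeR adjusted p 0.878), and without KO 2 the log2 fold change was -0.013.

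Trpc6, a cation channel opened by diacylglycerol after receptor activation, had the most negative log2 fold change of the 10. On chromosome 9 (8544142 to 8680741, mm9), it was at 4.73, 10.5 and 6.03 CPM in WT and at 3.97, 2.62 and 8.40 CPM in KO. Its highest libraries were WT 2, the lowest for 7 members, and KO 3, and its lowest was KO 2, the highest for 7 members. WT averaged 7.09 ± 3.0 CPM and KO 4.99 ± 3.0 CPM (SD, n = 3 per genotype), with overlap and a log2 fold change of -0.51 (SE 0.51, edgeR adjusted p 0.866). It was -0.11 without WT 2, -0.20 without KO 2 and -1.11 without KO 3. WT 2 and KO 3 are the libraries with neuronal transcripts, with Th, the rate-limiting enzyme of catecholamine synthesis, at 304 and 859 CPM against 17.8 to 27.3 CPM in the others; their part in the level of Trpc6 was not tested.

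The 2 members of the sarcoplasmic reticulum both had WT 2 as the lowest and KO 2 as the highest library. Itpr1, the inositol trisphosphate receptor through which agonists release stored calcium (chromosome 6, 108163090 to 108501110, mm9), was at 537, 328 and 457 CPM in WT and at 564, 637 and 369 CPM in KO, with KO 1 and KO 2 above every WT library and KO 3 above WT 2 alone (log2 fold change 0.25, SE 0.28, edgeR adjusted p 0.882). Without WT 2 it was 0.072. Pln, which encodes phospholamban (chromosome 10, 53057492 to 53065805), was at 12.96, 6.76 and 10.2 CPM in WT and at 14.1, 18.4 and 14.8 CPM in KO. Every KO library was above every WT library, although KO 1 exceeded WT 1 by little. The means were 9.99 ± 3.1 and 15.8 ± 2.3 CPM (SD, n = 3 per genotype), a ratio of 1.58, with a log2 fold change of 0.66 (SE 0.26), an unadjusted p of 0.0457 and an adjusted p of 0.617 by edgeR. DESeq2 gave an adjusted p of 0.453. The log2 fold change was 0.44 without WT 2, the library in which Pln was lowest. WT 2 was also lowest in the summed adipocyte markers and in contractile genes such as Myh11, and was rich in neuronal transcripts. The part of these transcripts in the level of Pln was not tested. Pln is also a heart muscle gene; the cardiac myosin gene Myh6 was at 2.36, 4.20 and 68.9 CPM in WT and at 26.7, 72.0 and 30.4 CPM in KO. KO 2 was the highest of the 6 libraries for both genes, while the highest WT library was WT 3 for Myh6 and WT 1 for Pln, and the part of heart muscle transcripts in the level of Pln was not tested.

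**Figure D2:**
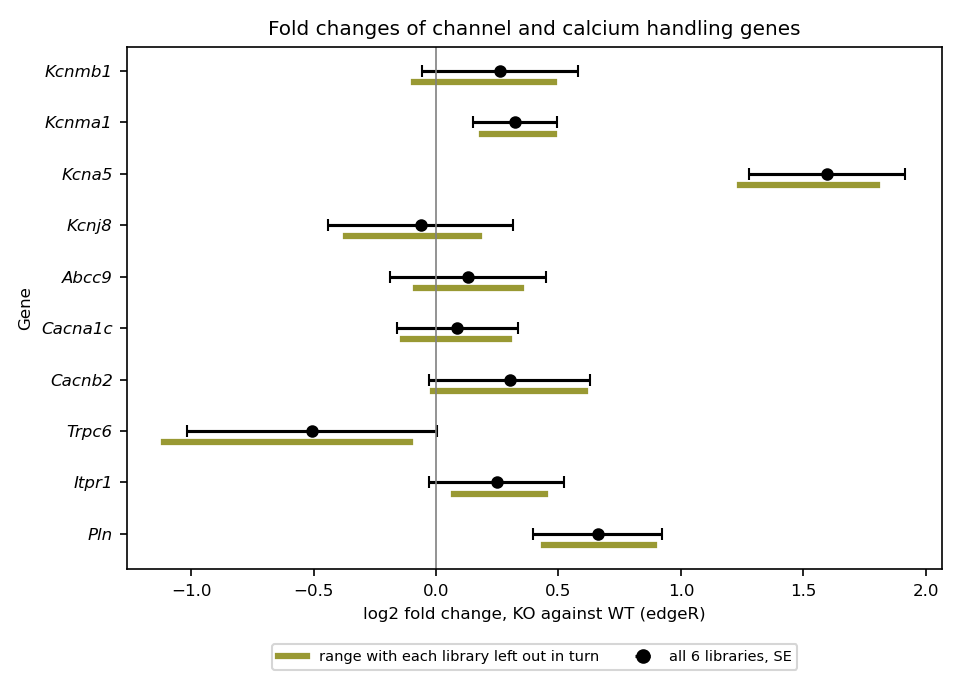
Log2 fold change of each member in KO against WT by edgeR, with its SE (black), and the range of the same value when each of the 6 libraries is left out in turn (olive bars). The ranges of Kcnma1, Kcna5, Itpr1 and Pln stay above 0, that of Trpc6 stays below 0, and those of the other 5 genes cross 0.

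Most members rose and fell between libraries with the contractile genes. In 7 of 10 members KO 2 was the highest library and in 7 of 10 WT 2 was the lowest, and the mean log2 CPM of 18 contractile genes, none of them a member, was likewise highest in KO 2 (9.17) and lowest in WT 2 (7.89). To express each member beside the smooth muscle transcripts of its own library, this contractile mean was subtracted from its log2 CPM. The span over 6 libraries then narrowed for 7 of the 10 members, from a median of 1.13 to 0.66 on the log2 scale over all 10, whereas it narrowed for 11.9% of all genes tested, whose median span widened from 0.75 to 1.42. Kcnmb1 went from 1.11 to 0.29, Cacnb2 from 1.18 to 0.33 and Itpr1 from 0.96 to 0.37. Kcnma1 (0.72 and 0.73), Kcna5 (2.21 and 2.58) and Trpc6 (1.97 and 3.26) did not narrow. Contractile genes and members were read from the same libraries, so this is a description of shared variation.

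**Figure D3:**
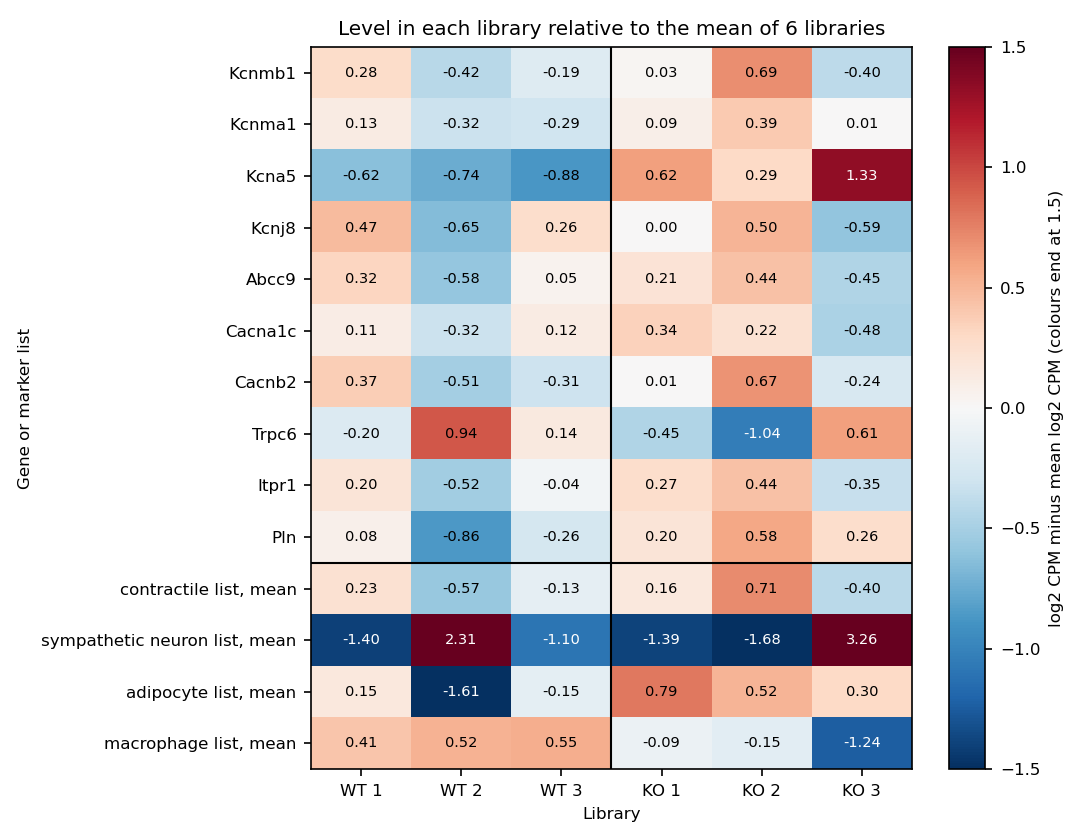
Log2 CPM of each member, and mean log2 CPM of 4 marker lists, in each library after subtraction of the mean over the 6 libraries (rows: genes and lists; columns: libraries; red above and blue below the mean, colours ending at 1.5). Kcnmb1 at 0.69 in KO 2 and -0.42 in WT 2 is close to the contractile list at 0.71 and -0.57, whereas Trpc6 is at -1.04 and 0.94, and Kcna5 is below its mean in the 3 WT and above it in the 3 KO libraries.

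Beside contractile genes, 3 members were higher and 7 lower in KO, with a median difference of -0.085, while the median over all genes tested was -0.27. Kcnj8 was the member whose groups then separated: its log2 CPM minus the contractile mean was -2.60, -2.91 and -2.44 in WT 1 to WT 3, and in KO 1 to KO 3 -2.99, -3.04 and -3.03. The KO libraries lay close together (SD 0.026, n = 3) and below every WT library (difference -0.37, exact two-sided permutation p 0.10, the smallest that 3 against 3 libraries can give, adjusted p 0.50 over the 10 members). A separation with KO below was seen for 9.13% of all genes on this measure. With Acta2 alone in place of the list no member separated. Kcna5 remained higher on average (difference 1.18, exact permutation p 0.20), but its groups now overlapped, since KO 2, at -7.14, lay below WT 2, at -6.89. For Pln the difference was 0.38 and for Kcnmb1 -0.095 (exact permutation p 0.20 and 0.30), with overlap in both. The overlap of Pln was very small, KO 2 at -4.9611 lying just below WT 3 at -4.9602, and with a prior count of 0.5 its groups separated with KO above (exact permutation p 0.10).

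**Figure D4:**
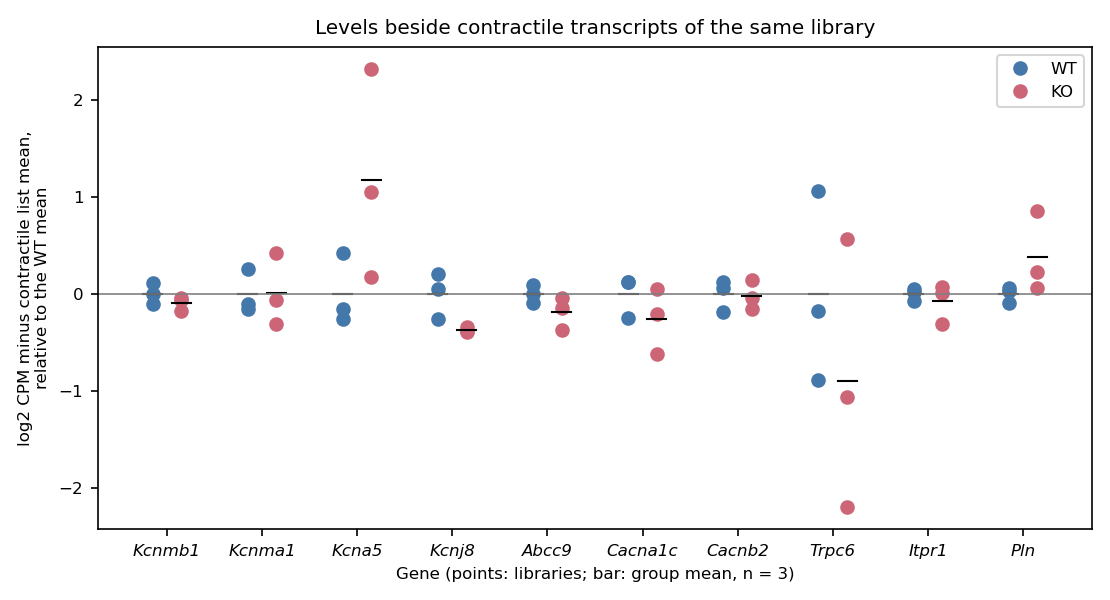
Log2 CPM of each member minus the mean log2 CPM of the contractile genes in the same library, shown relative to the WT mean (points: 3 WT and 3 KO libraries; bars: group means). The points of Kcnmb1, Cacnb2 and Itpr1 sit close together, the 3 KO points of Kcnj8 lie below its WT points, and Kcna5 and Trpc6 are spread over more than 2 log2 units.

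The genes with the most similar profiles were found by the root mean square difference between centred log2 CPM over the 6 libraries, among 14707 genes with a mean of at least 1 CPM. The nearest gene was Fhl1 for Kcnmb1 (0.045), Sema5a for Cacnb2 (0.027), Asap2 for Itpr1 (0.024), Prdm6 for Abcc9 (0.046), Tnfaip8l1 for Kcnj8 (0.064), Arhgap6 for Cacna1c (0.050), Ift81 for Kcnma1 (0.039) and Lama2 for Pln (0.042). The other near genes included Ltbp1 and Lpp for Kcnmb1, and Pdlim7 and Mrvi1 for Itpr1. No gene was as near to Kcna5 or Trpc6: the 3 nearest were Timp4 (0.20), Clstn3 (0.22) and Fabp3 (0.22) for Kcna5, and Gpr176 (0.16), Cxcr4 (0.19) and Ubash3b (0.20) for Trpc6. The difference from Myh11 was 0.15 for Itpr1, 0.16 for Abcc9 and 0.18 for Kcnmb1, but 0.92 for Kcna5 and 1.13 for Trpc6. With 6 libraries, such nearness is a description of these samples.

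A wider list of 85 other channel and calcium store genes was read from the same fit to place the members among their partners and paralogues. Of these, 78 were tested and 0 were called by edgeR (10 had an unadjusted p under 0.05 and DESeq2 called 2), against 0% of all genes. The log2 fold change was above 0 for 55 and below 0 for 23, and the median was 0.26. The 10 with an unadjusted p under 0.05 compare with 8% of all genes. The groups did not overlap for 11: KO was above WT in 9 and below it in 2, against 8.33% and 8.38% of all genes. The 2 that DESeq2 called, against 0.333% of all genes, were Trpc5, higher in KO, and Kcnn4, lower in KO.

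The other subunits of the calcium-activated channel had few reads. The beta2 gene Kcnmb2 averaged 0.26 ± 0.10 CPM in WT against 0.77 ± 0.33 CPM in KO (SD, n = 3 per genotype, as for all pairs of means below, given WT first), and the neuronal beta4 gene Kcnmb4 reached 2.25 and 3.12 CPM in WT 2 and KO 3 and at most 0.302 CPM elsewhere. Kcnn4, the intermediate-conductance calcium-activated channel of leukocytes and of proliferating smooth muscle, was at 29.9, 34.3 and 33.3 CPM in WT and at 21.3, 15.8 and 11.6 CPM in KO (log2 fold change -1.0, SE 0.23; adjusted p 0.587 by edgeR and 0.0489 by DESeq2). Macrophage markers moved with it: all 8 were lower in KO, summing to 1980 to 2290 CPM in WT and 656 to 1432 CPM in KO, and their part in it was not tested. Of 19 voltage-gated potassium channel genes tested, 17 had a positive log2 fold change (median 0.38); Kcna2 was at 45.4 ± 28.1 and 67.1 ± 38 CPM and was highest in KO 3. Kcna3, a channel of lymphocytes and macrophages, was at 4.34 ± 1.2 and 2.46 ± 0.60 CPM, with every KO library below every WT library, beside the macrophage markers given above. The pore and receptor of the pancreatic type of ATP-sensitive channel, Kcnj11 (0.49 ± 0.31 and 1.19 ± 0.28 CPM) and Abcc8 (0.24 ± 0.11 and 0.56 ± 0.11 CPM), had every KO library above every WT library, at low counts. Of the 5 two-pore background channel genes tested, 4 had a positive log2 fold change (median 0.71); one of them, Kcnk3, was at 19.5, 16.5 and 25.4 CPM in WT and at 37.9, 27.8 and 50.6 CPM in KO (log2 fold change 0.92, SE 0.27, edgeR adjusted p 0.587).

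Of 10 voltage-gated calcium channel genes tested, 7 were positive and 3 negative, and in 10 of 10 the groups overlapped. Cacna2d1, the alpha2delta subunit, was at 174 ± 22.6 and 173 ± 17.5 CPM (log2 fold change -0.0046), Cacna1d at 48.1 ± 5.1 and 47.7 ± 13 CPM, and the beta subunits Cacnb1 and Cacnb3 at 15.2 ± 7.0 and 19.1 ± 15.0, and at 40.6 ± 11.5 and 37.5 ± 15.3 CPM. Both beta subunit genes were highest in WT 2 and KO 3. Trpc1, a relative of Trpc6, was at 12 ± 2.0 and 17.1 ± 3.5 CPM. Trpc5, at 10, 8 and 2 counts in WT and 52, 28 and 57 in KO, had a log2 fold change of 2.83 (SE 0.60), with an adjusted p of 0.587 by edgeR and 0.0193 by DESeq2. Among all 15 receptor-operated, store-operated and mechanosensitive channel genes tested, 7 were positive and 8 negative (median -0.058). Of the store-operated genes, Stim1, named after its values were seen, was at 58.6 ± 4.2 and 71.6 ± 3.5 CPM, without overlap. The chloride channel gene Ano1 was at 167 ± 27.6 and 132 ± 52.6 CPM.

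Of 19 genes of calcium stores and extrusion tested, 14 had a positive and 5 a negative value (median 0.16). Atp2a2, the calcium ATPase that phospholamban restrains, was at 561, 428 and 441 CPM in WT and at 481, 712 and 521 CPM in KO, and the groups overlapped. Ryr2, a ryanodine receptor of heart, neurons and smooth muscle, was at 137, 119 and 108 CPM in WT and at 169, 155 and 229 CPM in KO, with every KO library above every WT library (log2 fold change 0.60, SE 0.18, edgeR adjusted p 0.587). Ryr3 was also without overlap, at 2.76 ± 0.56 and 4.09 ± 1.0 CPM. The other inositol trisphosphate receptor genes differed in sign: Itpr2 was at 153 ± 22 and 168 ± 45.3 CPM and Itpr3 at 92.7 ± 12.2 and 72.7 ± 12.9 CPM. Sln, a relative of phospholamban, reached 2.09 CPM in WT 3 and 2.88 in KO 2, the libraries with the most Myh6, and at most 0.552 CPM elsewhere. The cyclic GMP-dependent kinase gene Prkg1 (69.9 ± 9.4 and 84.1 ± 13.9 CPM) and Mrvi1, which encodes its substrate at the inositol trisphosphate receptor (203 ± 42.2 and 247 ± 75.8 CPM), overlapped between the genotypes.

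**Figure D5:**
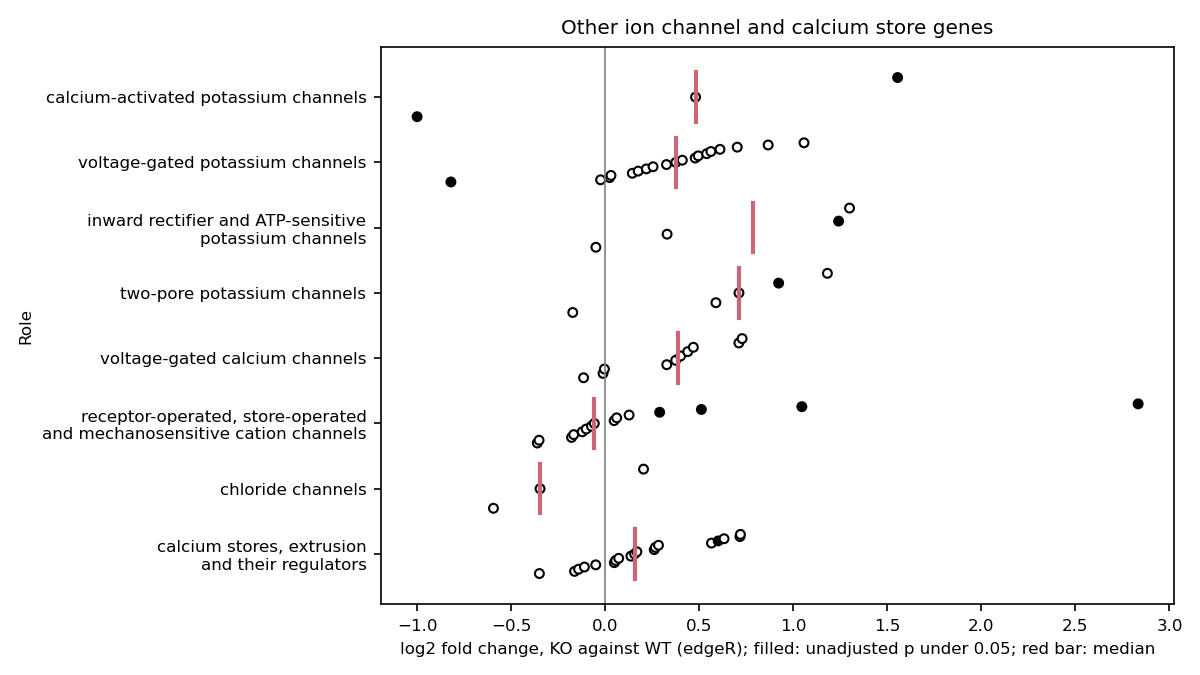
Log2 fold change (edgeR, KO against WT) of the 78 other channel and calcium store genes tested, by role; filled points have an unadjusted p under 0.05 and red bars are medians. Trpc5 at 2.83 is the point furthest right and Kcnn4 at -1.0 the point furthest left.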

How the data were processed

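The deposited values are raw read counts per gene. The command in the file headers shows featureCounts v1.4.6-p4 counting exons of UCSC mm9 gene models, summed by gene name, and sets nothing for strand, pairs or reads that map to several places. STAR and DESeq2 stand in the submitters' processing notes. A deposited summary gives the alignment counts, of which 32.6% to 36.9% were assigned to genes. Groups and replicate numbers came from the sample titles, with nothing on litters or batches.

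Genotypes were compared by edgeR 4.0.16 under R 4.3.3 (quasi-likelihood test, two-sided, TMM, filterByExpr with a minimum count of 10) over 15937 genes, with Benjamini-Hochberg adjustment and a threshold of 0.05, after a check on simulated counts. In that check 60 of 100 genes changed 4-fold were recovered, but 3 of 100 changed 2-fold, with 4 false calls each time. CPM are scaled by TMM; log2 CPM used a prior count of 2. DESeq2 1.42.0 and limma-voom (limma 3.58.1) were alternatives. Every replicate pair differed by more than sampling noise. Library totals ran from 22223584 to 26982005 counts; counting error weighs most on Kcna5 and Trpc6, the members with fewest reads. Genes named are the members, Col15a1, set partners and paralogues, the 2 genes of smallest unadjusted p in each role, set markers and the most abundant of each marker list, and the 3 nearest profiles of each member. The members and lists were chosen with earlier results of these data known. Itpr1 had no promoter sequence in the table used. Exact permutation tests were two-sided, over libraries. Alternatives changed the scaling, filter, tool, prior count or reference, or left libraries out. Some genes of the wider list are not reported here by name.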

Additional observations from a re-analysis of the deposited data

How the results depend on the processing

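The count of genes changed was 53 of all genes, 1 of 10 members and 2 of the wider list in DESeq2, and 1, 0 and 0 without both WT 2 and KO 3; it was 0 for each in edgeR under the other scalings, without the filter, in limma-voom and with each library left out. In DESeq2, Kcna5 (1.57), Col15a1 (-1.64), Kcnn4 (-1.02) and Trpc5 (2.83) passed. With each library left out in turn, 5 to 9 members were higher in KO and their median log2 fold change ran from -0.0048 to 0.45. In the same way Kcnmb1 ran from -0.088 to 0.48, Kcnj8 from -0.37 to 0.17, Abcc9 from -0.083 to 0.35, Cacna1c from -0.14 to 0.30, Cacnb2 from -0.013 to 0.61, Cacna1d from -0.19 to 0.20, Cacnb1 from -0.54 to 0.77, Cacnb3 from -0.50 to 0.14, Cacna2d1 from -0.18 to 0.050, Itpr2 from -0.15 to 0.31 and Sln from -0.84 to 2.85. Without both WT 2 and KO 3, Cacna1d was at 0.11 and Cacnb1 at -0.11. Kcnma1, Kcna5, Trpc6, Itpr1 and Pln kept their direction under all 14 alternatives. Beside contractile genes, the number of members whose groups did not overlap was 1, but 0 with Acta2 alone, 2 with a prior count of 0.5, 4 without both WT 2 and KO 3 and 2 to 3 with 1 library left out, where fewer libraries overlap less. The counts under these other settings have no share over all genes beside them and are not read further. For the first count, 9.46% of all genes did not overlap on the difference from the contractile mean. On that measure Kcnma1 was at -0.025 with Myh11 alone and -0.062 without both libraries, Cacnb2 at 0.075 and Itpr1 at 0.017 with Acta2 alone, and with 1 library left out they ran from -0.19 to 0.18, -0.11 to 0.052 and -0.15 to 0.041. A CArG box with at most 1 mismatch in the centre was found for 2 of the 9 members with a sequence. These held it in 3 of the 12 member promoters, against 8.59% of all promoters. The cause of these differences was not tested.

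With the replicate number as a block, 0 genes and 0 members passed, 8 members were higher in KO, and Kcna5 was at 1.53 with an edgeR adjusted p of 1.00. Deviations of same-numbered libraries correlated at 0.43, -0.68 and -0.58 over genes, so the numbers were not treated as pairs. Members with few reads, Kcna5 and Trpc6, are limited by depth most.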

Other observations

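Genes whose products assemble or act on each other were also set side by side as a ratio of counts per base of exon within a library, for pairs picked after the counts were seen. Abcc9 stood at 2.86 to 3.81 per Kcnj8 over the 6 libraries, with 3.10 ± 0.32 in WT and 3.53 ± 0.35 in KO, and Kcnma1 at 0.62 to 1.02 per Kcnmb1, with 0.74 ± 0.068 and 0.82 ± 0.20 (SD, n = 3 each). In these 2 pairs the genotypes overlapped, as they did for Cacna1c per Cacnb2 (1.87 ± 0.43 and 1.597 ± 0.47). Atp2a2, the calcium ATPase, stood at 18.8, 27.5 and 18.7 per Pln in WT 1, WT 2 and WT 3 and at 14.8, 16.7 and 15.3 in KO 1, KO 2 and KO 3. It was the 1 pair of 5 without overlap, a count with no share over other gene pairs beside it. Pln itself was above WT in every KO library while Atp2a2 overlapped, so the ratio is not a result separate from that of Pln. The ratio was highest in WT 2, where Pln was lowest. None of these ratios was tested.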
